A study of Homo sapiens with 6 samples.

Results

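Matrix metalloproteinases (MMPs) and their tissue inhibitors (TIMPs) were compared in ES-2, an established cell line from a human ovarian cancer. The set held every probe set whose platform annotation names exactly 1 of 10 genes: MMP1, MMP2, MMP3, MMP9, MMP10, MMP14, MMP15, TIMP1, TIMP2 and TIMP3. That rule gave 23 of the 49293 probe sets tested, or 10 of 18132 genes. The 6 samples were total RNA, each read on its own Affymetrix PrimeView array, a 1-colour platform that reports a transcript through 1 or more groups of short probes, the probe sets. By their labels 3 arrays came from ES-2 cells overexpressing CADM1 and 3 from ES-2 control cells, which the series calls mock controls; in the source-name field, the second array of the former group carries CADM2 and the third CADM3. No label gives a vector or a clone, or says that arrays of a group were grown apart, so the p-values here reflect array-to-array spread that could be purely technical.

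CADM1 is an immunoglobulin-superfamily adhesion molecule, and the series asked what lies upstream of its role as a tumour suppressor. MMPs are zinc-dependent endopeptidases that are made as inactive proenzymes and cut collagens, gelatin, proteoglycans and cell surface proteins once the propeptide is removed. TIMPs block active MMPs by filling the catalytic cleft, and TIMP2 also takes part in activating pro-MMP2 at the cell surface together with MMP14. In ovarian cancer this system is known for its part in invasion of the mesothelium and in the turnover of peritoneal matrix.

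The medians of the arrays were 6.18 to 6.20 (log2, a scale inferred from the values), and the arrays correlated at 0.998 to 0.999 over genes. The brightest CADM1 probe set, 11728805_a_at, was 4.34-fold higher in the arrays labelled control than in those labelled overexpression, opposite to the labels (limma, adjusted p = 1.65e-14), and its other 5 probe sets were not called. The second brightest of the 6, 11757557_s_at, ran the way of the labels, at 0.17, and its groups did not overlap (limma, adjusted p = 0.0975). Groups are therefore named by their labels, and every difference below is arrays labelled overexpression minus arrays labelled control. Of 13 measured ovarian cancer markers 7 reached the overall median of the probe sets: KRT7, KRT8, KRT18, MSLN, FOLR1, NAPSA and VIM. The other 6 lay below it: PAX8, WT1, MUC16, KRT19, EPCAM and CDH1. Among fibroblast and leukocyte markers 9 of 10 in each list lay below that median, and none was called. Of 7 endothelial markers 6 lay below it and CDH5 was called, with a difference of -0.27.

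None of the 23 probe sets for MMPs and TIMPs was called between the labelled groups (limma, adjusted p under 0.05 over all probe sets), where 1.49% of all probe sets were, 0.605% as higher and 0.887% as lower. At an unadjusted p under 0.05 there were 5 of the 23, against 12.8% of all probe sets. With the brightest probe set standing for each gene, 0 of 10 genes were called, against 2.16% of all genes, and the lowest adjusted p was 0.117, that of TIMP2, followed by TIMP3 at 0.163. The members' differences ran from -0.16 to 0.17 on the log2 scale, with a median of 0.01 beside a median of 0.00 over all probe sets. Their median absolute difference was 0.06, and that of all probe sets was 0.05.

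The intervals describe the signal of each probe set. The lowest bound of any 95% interval was -0.32, a 1.24-fold decrease, for an MMP2 probe set, and the highest was 0.34, a 1.27-fold increase, for MMP9. These are the fit's own intervals for single probe sets, not widened for the number of probe sets. Both of these probe sets were dim, with means of 2.85 and 4.56, and whether they detect their transcript was not tested, so the folds do not bound the change of MMP2 or MMP9 itself. Values of a bulk sample cannot tell fewer cells that express a gene from less RNA per cell. In 8 of the 23 probe sets the groups did not overlap, 6 lower and 2 higher in the overexpression-labelled arrays, where 17.4% of all probe sets had no overlap (8.50% higher and 8.94% lower).

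**Figure D1:**
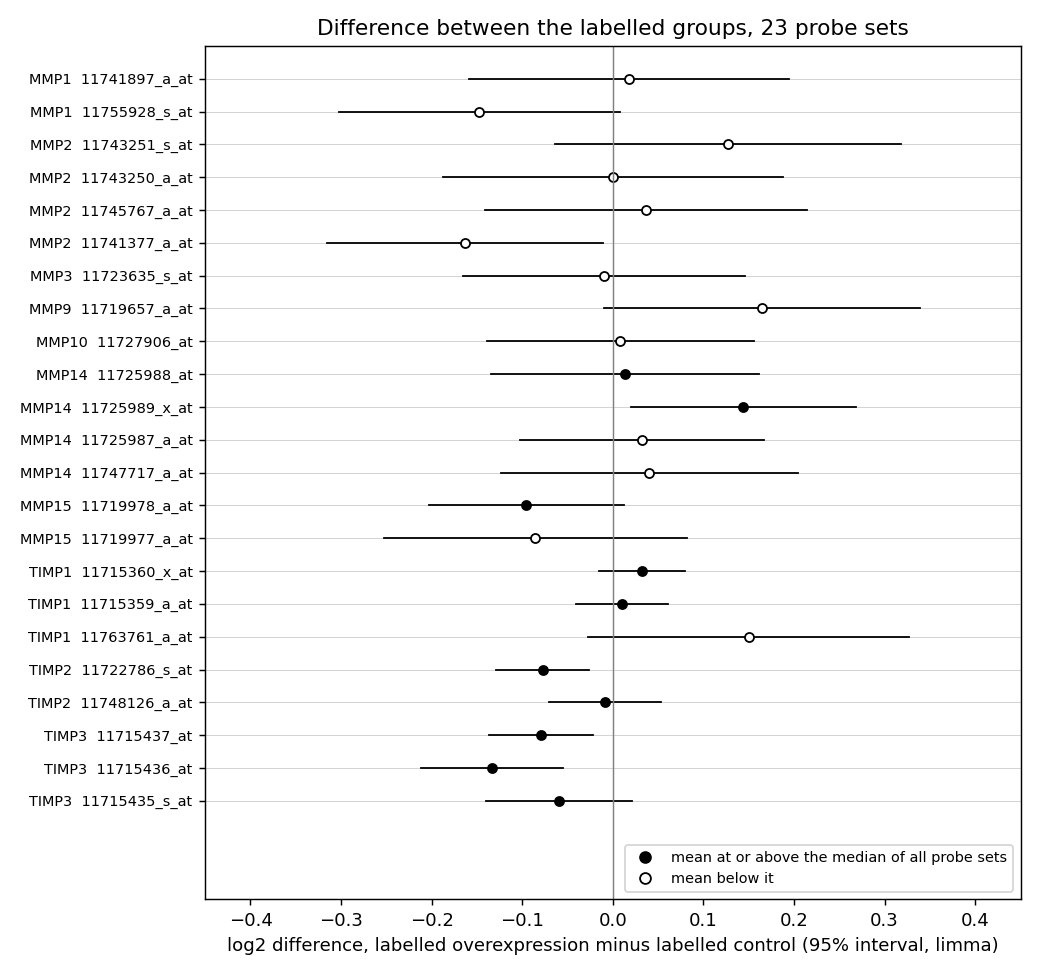
Difference between the labelled groups for each of the 23 probe sets, on the log2 scale, with the 95% interval from limma; filled points had a mean that reached the overall median of the probe sets. Points lie between -0.16 and 0.17, and the 5 intervals that miss 0 belong to MMP2, MMP14, TIMP2 and, for 2 probe sets, TIMP3; none was called after adjustment.

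Signals of the TIMPs were bright and those of the secreted MMPs dim. Of the 23 probe sets 10 had a mean of at least 6.19, the overall median of the probe sets. These were 7 of the 8 TIMP probe sets, 2 of the 4 for MMP14 and 1 of the 2 for MMP15, while all probe sets of MMP1, MMP2, MMP3, MMP9 and MMP10 lay below it. Probes differ in how strongly they bind, so these signals do not rank the amounts of transcript, and detection calls were not used here, so whether the dim probe sets detect their gene was not tested.

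**Figure D2:**
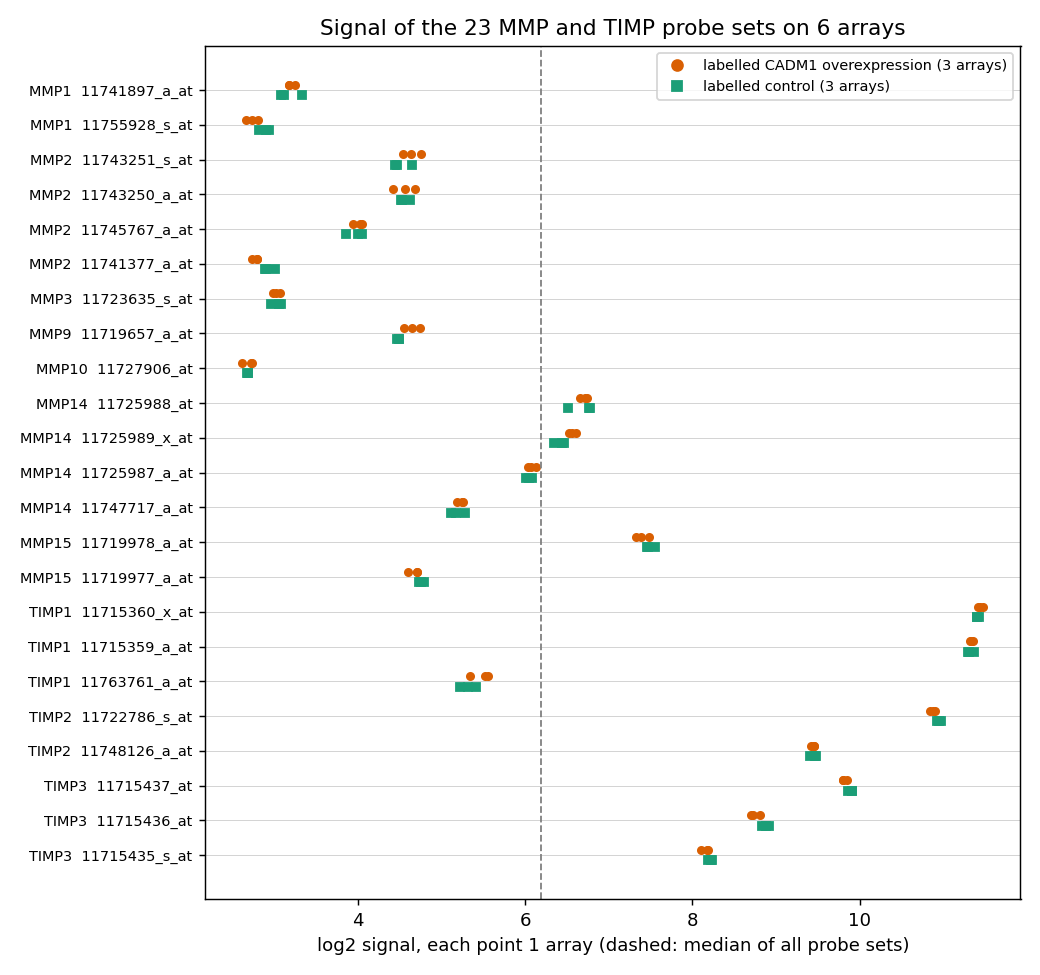
Log2 signal of the 23 probe sets on each of the 6 arrays, circles for arrays labelled CADM1 overexpression and squares for arrays labelled control, with the median of all probe sets (6.19) dashed. The brightest TIMP1, TIMP2 and TIMP3 probe sets lie between 9.80 and 11.48, and those of MMP1, MMP3 and MMP10 between 2.61 and 3.33.

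TIMP3, the inhibitor that stays bound to the extracellular matrix and also blocks several ADAM proteases, held the single probe set with the lowest adjusted p of the 23. Probe set 11715436_at read 8.70, 8.72 and 8.81 in the 3 arrays labelled overexpression and 8.87, 8.92 and 8.83 in the 3 labelled control. The groups did not overlap, but the highest overexpression array and the lowest control array were 8.81 and 8.83. The difference was -0.13 ± 0.037 (SE), with an interval from -0.21 to -0.06 (limma, adjusted p = 0.0983).

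The other TIMP3 probe sets had the same sign. Probe set 11715437_at, the brightest, read 9.80, 9.80 and 9.84 against 9.91, 9.86 and 9.90 in the control arrays, also without overlap, a difference of -0.08 ± 0.027 (SE) (limma, adjusted p = 0.199). Probe set 11715435_s_at read 8.19, 8.17 and 8.10 against 8.18, 8.23 and 8.23 and overlapped, with a difference of -0.06 ± 0.037 (SE) (limma, adjusted p = 0.565). Probe set 11715436_at was called in 2 alternatives. Without the third overexpression array, the highest of its group, its difference was -0.17 (limma, adjusted p = 0.0406). With all arrays kept but weighted by their quality it was -0.15 (limma, adjusted p = 0.0466). Over its 16 alternatives the adjusted p ran from 0.0406 to 0.390, and the other 14 gave no call.

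The promoter of TIMP3 is shown beside that of TIMP1 because a TIMP3 probe set had the lowest p of the 23 while TIMP1, below, had differences of the other sign. Each is the 250 bases before the gene's start in RefSeq on GRCh38.p14, both on the plus strand, at chr22:32801455-32801704 for TIMP3 and chrX:47582186-47582435 for TIMP1, with each GC box match in capitals (GGGCGG or its reverse complement CCGCCC).
TIMP3: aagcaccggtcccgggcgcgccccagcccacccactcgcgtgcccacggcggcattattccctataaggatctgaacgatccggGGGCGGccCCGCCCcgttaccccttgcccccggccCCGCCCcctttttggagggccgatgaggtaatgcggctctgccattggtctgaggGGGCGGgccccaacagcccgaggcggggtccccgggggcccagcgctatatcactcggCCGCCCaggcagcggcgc
TIMP1: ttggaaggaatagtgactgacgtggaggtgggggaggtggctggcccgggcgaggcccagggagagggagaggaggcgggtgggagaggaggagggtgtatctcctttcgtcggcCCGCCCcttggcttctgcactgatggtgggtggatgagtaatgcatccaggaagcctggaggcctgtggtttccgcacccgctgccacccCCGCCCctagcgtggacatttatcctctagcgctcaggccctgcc
The TIMP3 window held 5 GC box matches, 26 CpG dinucleotides and 72.4% G and C, and the TIMP1 window held 2, 12 and 64.8%. A GC box match was present in 42.6% of all 35116 promoter windows of this length. Neither window held an exact match to TGANTCA, the form of the AP-1 motif searched for here, on either strand. Variant forms of the site were not searched for, so AP-1 sites of other spelling may be present. Sequences were found for 5 of the 10 genes, MMP10, MMP14, MMP15, TIMP1 and TIMP3. Whether the letters of a window relate to any difference between the labelled groups was not tested.

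TIMP2, which inhibits MMP2 and also bridges pro-MMP2 to MMP14 on the cell surface, had a negative difference in both probe sets. Probe set 11722786_s_at read 10.88, 10.84 and 10.90 in the arrays labelled overexpression against 10.93, 10.97 and 10.95 in those labelled control. The groups did not overlap, and the difference was -0.08 ± 0.024 (SE), with an interval from -0.13 to -0.03 (limma, adjusted p = 0.145). Probe set 11748126_a_at gave -0.01 ± 0.029 (SE), and its groups overlapped.

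TIMP1, a broad MMP inhibitor that also acts as a growth signal through CD63, gave small positive differences in all 3 probe sets, each with overlapping groups. Probe set 11715360_x_at, of the type that can match several transcripts, read 11.44, 11.42 and 11.48 against 11.40, 11.43 and 11.40. The brightest of the other type, 11715359_a_at, read 11.33, 11.32 and 11.36 against 11.29, 11.37 and 11.31. Their differences were 0.03 ± 0.022 and 0.01 ± 0.024 (SE), with intervals from -0.02 to 0.08 and from -0.04 to 0.06, and both intervals lay within a 1.06-fold change in either direction. The dim probe set 11763761_a_at gave 0.15 ± 0.083 (SE) at means of 5.47 and 5.32 (limma, adjusted p = 0.486).

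TIMP1 and TIMP3 each lie within a synapsin gene in RefSeq. SYN1, which overlaps TIMP1, had a difference of -0.03 ± 0.097 (SE), and SYN3, which overlaps TIMP3, one of 0.02 ± 0.078 (SE), at dim means of 3.96 and 4.37 in the control arrays; neither was called (limma, adjusted p = 0.939 and 0.956). Over the 6 arrays the genes whose log2 values were most like those of TIMP3 11715436_at were TCIRG1, RILPL1 and GLMP, with Pearson's r of 0.993, 0.993 and 0.991. These 3 were the highest of all other genes on the same 6 arrays, and their own differences, -0.17, -0.16 and -0.08, were not called (limma, adjusted p = 0.0974, 0.233 and 0.160).

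**Figure D3:**
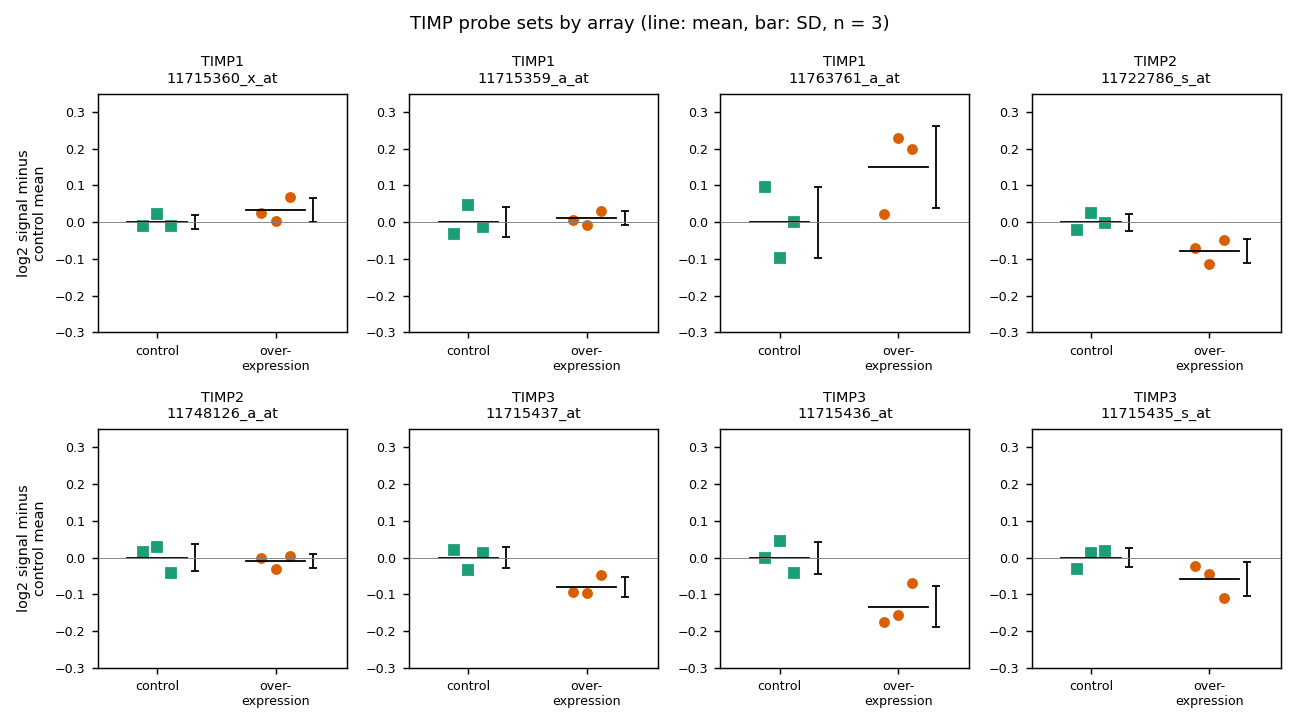
Log2 signal minus the control mean for the 8 TIMP probe sets, 1 point an array, with the mean of each group as a line and the SD as a bar (n = 3). TIMP2 11722786_s_at and TIMP3 11715437_at and 11715436_at show no overlap between the groups, with means 0.08, 0.08 and 0.13 below the control mean; the TIMP1 probe sets overlap.

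The membrane-type enzymes MMP14 and MMP15 sit in the plasma membrane, where MMP14 cuts fibrillar collagen and activates pro-MMP2. The brightest MMP14 probe set, 11725988_at, read 6.71, 6.65 and 6.73 in the arrays labelled overexpression and 6.76, 6.77 and 6.51 in those labelled control, a difference of 0.01 ± 0.069 (SE). The third control array was the lowest of the 6, and without it the difference was -0.07.

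Another MMP14 probe set gave a larger difference. Probe set 11725989_x_at read 6.56, 6.53 and 6.60 against 6.47, 6.44 and 6.35, without overlap, a difference of 0.14 ± 0.058 (SE) (limma, adjusted p = 0.298). The dimmer 11725987_a_at and 11747717_a_at gave 0.03 and 0.04 with overlap. All 4 had a positive sign, and the mean of the 4 gave 0.06 and was not called.

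MMP15, a relative of MMP14 that also activates pro-MMP2, was below the control mean in both probe sets. Probe set 11719978_a_at read 7.33, 7.38 and 7.48 against 7.56, 7.46 and 7.46, with overlap, a difference of -0.10 ± 0.050 (SE) (limma, adjusted p = 0.459). The dim 11719977_a_at read 4.71, 4.71 and 4.59 against 4.78, 4.76 and 4.73, without overlap, a difference of -0.09 ± 0.078 (SE) (limma, adjusted p = 0.717).

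The gelatinases MMP2 and MMP9 cut denatured collagen and the type IV collagen of basement membranes. MMP9, read by 1 probe set, had the largest positive difference of the 23. It read 4.64, 4.74 and 4.55 in the arrays labelled overexpression and 4.46, 4.49 and 4.48 in those labelled control, without overlap. The difference was 0.17 ± 0.081 (SE) (limma, adjusted p = 0.423), and the overexpression arrays spread more widely, with an SD of 0.099 against 0.014. Adding an offset of 64 on the linear scale, which shrinks the difference of any dim probe set, left 0.04 (limma, adjusted p = 0.330).

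The 4 MMP2 probe sets were dim and did not share a sign. The brightest, 11743251_s_at, gave 0.13 ± 0.089 (SE) with overlapping groups, and 11743250_a_at and 11745767_a_at gave 0.00 and 0.04. Probe set 11741377_a_at read 2.78, 2.79 and 2.73 against 2.90, 3.01 and 2.88, without overlap and near the lowest value of the table, 2.15. Its difference of -0.16 ± 0.071 (SE) was the most negative of the 23 (limma, adjusted p = 0.347). The mean of all 4 MMP2 probe sets differed by 0.00.

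The interstitial collagenase MMP1 opens the triple helix of fibrillar collagens, and the stromelysins MMP3 and MMP10 cut proteoglycans and laminin and activate other proenzymes. MMP1 11741897_a_at read 3.24, 3.17 and 3.17 against 3.33, 3.08 and 3.12, a difference of 0.02 ± 0.083 (SE). The other MMP1 probe set, 11755928_s_at, gave -0.15 ± 0.072 (SE) at means of 2.73 and 2.88, without overlap (limma, adjusted p = 0.420). MMP3 read 3.06, 3.02 and 2.98 against 3.08, 3.05 and 2.96, a difference of -0.01 ± 0.073 (SE). The MMP1 probe sets thus had opposite signs, and the overexpression arrays of MMP3 lay within the range of the control arrays.

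MMP10 read 2.61, 2.73 and 2.72 in the arrays labelled overexpression against 2.68, 2.68 and 2.67 in those labelled control, a difference of 0.01 ± 0.069 (SE). Its promoter is shown for the AP-1 site, the kind of element through which several MMP genes are known to respond to FOS and JUN proteins. It is the 250 bases before the start in RefSeq on GRCh38.p14, minus strand, chr11:102780629-102780878, with the AP-1 match (TGANTCA, its own reverse complement when N is free) and the TATA box match (TATAAA) in capitals.
MMP10: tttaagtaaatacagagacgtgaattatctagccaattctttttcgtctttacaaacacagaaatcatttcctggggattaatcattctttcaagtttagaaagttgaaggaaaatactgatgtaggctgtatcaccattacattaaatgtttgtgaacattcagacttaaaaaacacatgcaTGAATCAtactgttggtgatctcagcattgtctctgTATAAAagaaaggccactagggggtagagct
The first letter of the AP-1 match lay 67 bases before the start and that of the TATA box match 31 bases before it. Of all 35116 promoter windows of this length 6.57% held an AP-1 match and 10.7% a TATA box match on either strand. The other 4 windows found, those of MMP14, MMP15, TIMP1 and TIMP3, held no exact match to either pattern, and had 1, 5, 2 and 5 GC box matches. A match describes the letters of the window and was not tied to any value here.

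MMP1, MMP3 and MMP10 lie side by side in a run of 9 protein-coding MMP genes, ordered MMP7, MMP20, MMP27, MMP8, MMP10, MMP1, MMP3, MMP12 and MMP13 in RefSeq. All 9 had means below the median of all probe sets, and none was called. Their differences ran from -0.06 for MMP12, the macrophage elastase, to 0.21 ± 0.088 (SE) for MMP8, the neutrophil collagenase. MMP8 had means of 3.56 and 3.34 with overlapping groups (limma, adjusted p = 0.288), and 2 of its 4 probe sets had a positive sign.

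Related genes were taken from 6 lists with 148 of 154 distinct genes measured, each gene by its brightest probe set. The lists were chosen with earlier results of these data known. Their counts here and below are therefore descriptive, and setting them beside the shares of all genes is not a test of the lists. In these lists 3 genes rose and 8 fell in the arrays labelled overexpression (limma, adjusted p under 0.05 over all genes), where 0.960% of all genes rose and 1.20% fell. Leaving out the first overexpression array left 3 of the listed genes called. So did leaving out the second of that group, or the first control array. Over all genes, these 3 fits called 116, 226 and 142, against 392 with all arrays. Without the third overexpression array 10 listed genes were called, 9 of them also called in the main fit. Leaving out the second control array gave 5. Leaving out the third gave 7, 6 of them also called in the main fit.

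Of the 16 other MMPs and TIMP4 that were measured, none was called and the median difference was 0.02, beside 0.01 over all genes. MMP8 had the lowest p of these, followed by MMP19 at -0.16 ± 0.076 (SE), a sign that 2 of its 5 probe sets shared. TIMP4 gave -0.04 ± 0.035 (SE) at a mean of 9.06 against 9.10. None of 30 ADAM and ADAMTS proteases, relatives that shed membrane proteins or cut proteoglycans, was called, with a median of 0.03. ADAM15 gave -0.09 ± 0.030 (SE) with all 6 probe sets of that sign, and ADAM10, a sheddase of Notch and cadherins, gave -0.10 ± 0.037 (SE) with 3 of 4 of that sign (limma, adjusted p = 0.135 and 0.205).

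Among 28 genes of MMP activation, docking and clearance 1 rose and 2 fell, with a median of -0.02. SPOCK1, a testican proteoglycan of a family that acts on MMP14 activity, fell by 0.41, from 9.27 ± 0.024 to 8.86 ± 0.021 (SD, n = 3) (limma, adjusted p = 2.49e-06). It was called in all 17 alternatives. SPOCK1 is read by 1 probe set, so the alternative with the mean of a gene's probe sets used the same values for it. PLAU, the urokinase that makes plasmin, a proenzyme activator, rose by 0.22, and SERPINE2, an inhibitor of thrombin and urokinase, fell by 0.16 (limma, adjusted p = 0.0370 and 0.0192). Neither was called when the first or the second array of either group was left out, and PLAU was also not called without the third control array, with an offset of 64 or with the mean of its probe sets. Outside the naming rule and chosen after its values were seen, CD44, a hyaluronan receptor that docks MMP9 and is cut by MMP14, gave -0.16 ± 0.041 (SE) with all 10 probe sets of that sign (limma, adjusted p = 0.0600).

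Of 23 AP-1 and ETS factors, transcription factors with known sites in MMP promoters, 1 rose and 5 fell, while the median was 0.02. ETV5 fell by 0.35, from 8.32 to 7.97 (limma, adjusted p = 0.000386). ELK3 fell by 0.18, FOS by 0.16 and ETV4 by 0.22 (limma, adjusted p = 0.0169, 0.0226 and 0.0254), and every probe set of each had that sign. Chosen after their values were seen, ETS2 rose by 0.14 and ELF3 fell by 0.14 (limma, adjusted p = 0.0255 and 0.0376). Of these 6 genes, ETV5 was still called when the first or the second array of the overexpression group, or the first of the controls, was left out, and the other 5 were not. With the mean of all probe sets of a gene FOS, at -0.08, ELK3, ETS2 and ELF3 were not called, and ETV5 and ETV4 were.

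Of 23 ligands and receptors known to induce MMPs 1 rose and none fell, with a median of 0.03. This was IL1A, a cytokine that induces MMP1 and MMP3 in many cells, which rose by 0.34, from 4.87 to 5.21 on the log2 scale (limma, adjusted p = 0.0383). It was not called when any overexpression array was left out, nor when the first or the third control array was. IL1A was also not called without the mean-variance trend or with the replicate number as a block. An offset of 64, which shrinks the difference of any dim probe set, gave 0.12 and IL1A was still called. Of 28 matrix substrates 1 fell and none rose, with a median of 0.02. Vitronectin, VTN, an adhesive glycoprotein of plasma and matrix, fell by 0.20, from 12.27 to 12.07 (limma, adjusted p = 4.17e-05), and was called in all alternatives except the one with no mean-variance trend.

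**Figure D4:**
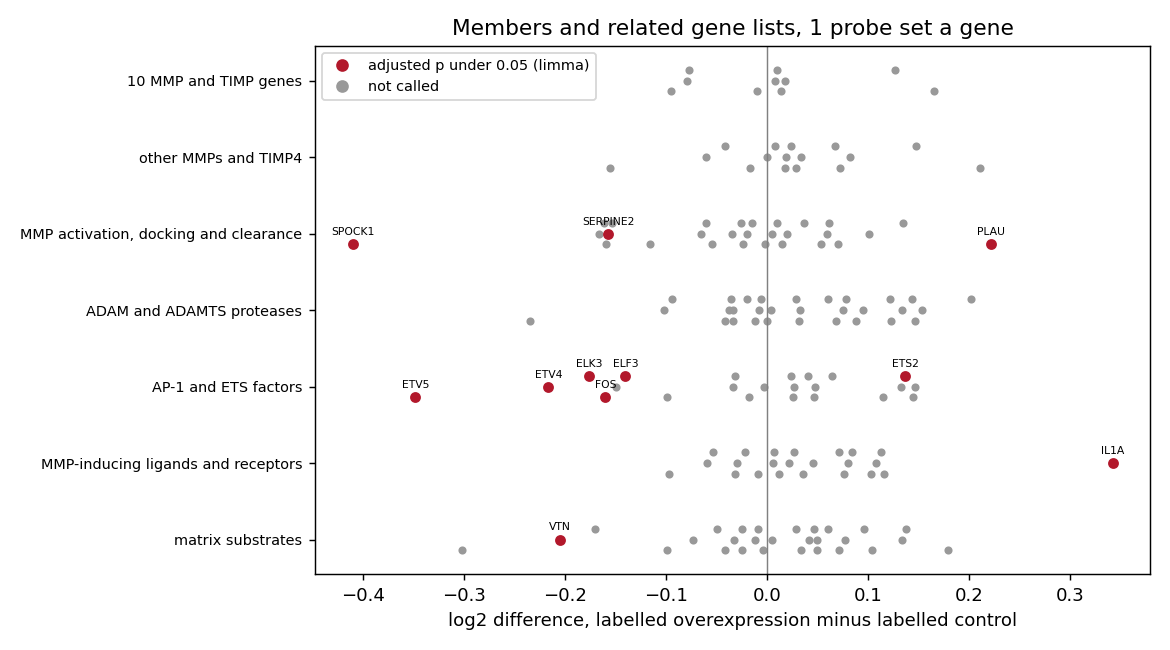
Log2 difference of the 10 MMP and TIMP genes and of the 6 related lists, 1 point a gene by its brightest probe set, red where the adjusted p was under 0.05 (limma). None of the 10 is red, and the red points include SPOCK1 at -0.41, ETV5 at -0.35 and IL1A at 0.34.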

How the data were processed

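Total RNA of ES-2 cells was measured on 6 arrays. The deposited log2 values come from the authors' MAS5 processing, per the submitters' processing notes, with no version; the log base, the summary method and the scaling between arrays are not settled by the sources used here, and no genome build was named. Groups came from the titles. Gene names came from the platform annotation, and 102 array controls were left out. Every probe set naming 1 member was kept, and no filter on dim values was applied, so all 23 were tested. The labelled groups were compared by linear models with moderated variances following the mean-variance trend (limma 3.58.1, R 4.3.3; two-sided, Benjamini-Hochberg), with no covariate, fitted over 49293 probe sets and again over 18132 genes, each by its brightest probe set, with an _x_at set only where there was no other. The script was tested on simulated data.

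The members and lists were chosen with earlier results of these data known. The naming rule takes all members; up to 4 called genes per list by p, or the 2 lowest in p where there was no call; 2 per cell type list; and 3 genes most correlated with the top member. The cell type genes by this rule were MSLN and FOLR1, COL1A2 and PDGFRA, CD3E and CD14, CDH5 and KDR, with differences of 0.10, -0.08, 0.18, 0.15, -0.12, -0.13, -0.27 and 0.26, and only CDH5 was called. Alternatives were quantile normalization, median centring, offsets of 16 and 64, 2 filters on dim features, no trend, a robust trend, a replicate block, array weights, omission of each array, and the mean of a gene's probe sets. The number of arrays limits the precision. Figures were drawn with matplotlib 3.10.9.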

Additional observations from a re-analysis of the deposited data

How the results depend on the processing

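No member gene was called under any of the 17 alternatives at the gene level, and 1 member probe set, TIMP3 11715436_at, was called under 2 of the 16 at the probe set level. The count of member probe sets called was 1 with array weights, and 0 to 1 when each array was left out, the 1 without the third overexpression array. The count of listed genes called, 11, was 1 with no trend, 3 with the replicate number as a block, and 3 to 10 when each array was left out. Signs turned only where the difference was uncalled and 0.04 or less in size. With quantile normalization MMP2 11743250_a_at gave -0.026, and with array weights MMP14 11725988_at gave -0.0031. Leaving out arrays gave ranges that crossed 0 for MMP1 11741897_a_at (-0.030 to 0.095), MMP2 11743250_a_at (-0.062 to 0.069) and 11745767_a_at (-0.017 to 0.076), MMP3 (-0.045 to 0.015), MMP10 (-0.011 to 0.045), MMP14 11725988_at (-0.072 to 0.058), TIMP1 11715359_a_at (-0.0062 to 0.033) and TIMP2 11748126_a_at (-0.030 to 0.0050).

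Without a trend 17 probe sets and 11 genes were called in the whole table, against 735 and 392 with it, and with the replicate block 377 and 172. Without the first overexpression array 241 probe sets were called. Deviations from the group mean correlated at 0.13, -0.07 and -0.07 between same-numbered arrays, and at -0.12 to 0.18 between arrays of different number. With 3 arrays a group, these values cannot show whether the numbers pair the arrays. With the replicate block 0 member probe sets were called. The median difference over all probe sets was 0.003 in the main fit, 0.002 with quantile normalization and 0.006 with median centring. Absence of a call does not show equal expression.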
